A study of Mus musculus with 12 samples.

Results

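Transcripts of 9 genes that make nitric oxide or carry its signal were followed in mouse hearts. They are the nitric oxide synthases Nos1, Nos2 and Nos3, the caveolar protein Cav1, the dimethylarginine hydrolases Ddah1 and Ddah2, the arginase Arg2, the cyclic GMP-dependent kinase Prkg1 and the phosphodiesterase Pde5a. They were chosen by symbol, with earlier results of these data known, as 9 of 31722 gene symbols in the deposited table. The hearts came from C57BL/6J mice in a CCl4 group of 6, given carbon tetrachloride, a hepatotoxic solvent with which cirrhosis is produced in rodents, and a Control group of 6. The labels give no agent for the Control group and no sex, age, dose or collection time. RNA came from heart tissue as a whole, and the question of the study was how liver cirrhosis bears on the heart. In such bulk tissue, fewer cells of a type and less RNA per cell cannot be told apart.

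Nitric oxide is made from arginine by the synthases. Nos3 is the endothelial enzyme, Nos1 the neuronal enzyme, also found in cardiomyocytes, and Nos2 the enzyme induced by inflammatory signals, mainly in macrophages. In caveolae, small pits of the plasma membrane, Cav1 binds Nos3 and holds its activity down until calcium signals release it. Nitric oxide activates soluble guanylate cyclase, and the cyclic GMP formed activates Prkg1, which relaxes vascular smooth muscle, until phosphodiesterases such as Pde5a break cyclic GMP down. Asymmetric dimethylarginine (ADMA) blocks the synthases and is hydrolysed by Ddah1, while Arg2 competes with them for arginine.

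Levels are RPKM, reads scaled to the length of the gene and the size of the library, so that they can be compared between genes. Differences are log2 fold changes (CCl4 minus Control) of RPKM + 1, a scale on which genes at low levels appear to differ less than they do. They come from a limma fit to the 14087 genes with at least 0.5 RPKM in at least 6 of the 12 hearts, with Benjamini-Hochberg adjustment over all of them. In that fit 0 of 14087 genes had an adjusted p under 0.05. At an unadjusted p under 0.05, 1435 genes (10.2%) differed in either direction, of which 226 were higher (1.6%) and 1209 lower (8.58%) in CCl4 hearts. That split was 807 higher and 741 lower when the libraries were scaled by the median of ratios. The median log2 fold change of all tested genes was -0.05, and 65.7% of them were below 0.

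Several hearts stood apart in ways the groups do not name. The atrial markers summed to 832.6 to 11723 RPKM in CCl4 hearts and 604.4 to 15044 RPKM in Control hearts, with the highest sums in CCl4 replicate 4 and Control replicate 1. Most of these sums was Nppa, at 802 to 11077 RPKM in CCl4 hearts and 577 to 14184 RPKM in Control hearts. Myl7 was at 0.811 to 306.6 RPKM in CCl4 hearts and 9.47 to 419.2 RPKM in Control hearts, highest in the same 2 hearts. Its log2 fold change was -2.10 (limma adjusted p = 0.547), so the sums do not show how Myl7 differed. Fibroblast markers were highest in CCl4 replicates 3, 6 and 5. Xist was near 0 in replicates 2 and 5 of each group. Mitochondrial genes, with their copies on chromosome 1, took 31.6% to 43.8% of length-weighted levels in CCl4 hearts, most in replicates 2 and 1, and 29.5% to 37.9% in Control hearts. Cardiomyocyte markers summed to 16757 to 26408 RPKM in CCl4 hearts and 23238 to 29261 RPKM in Control hearts, while hepatocyte markers summed to at most 0.731 RPKM in CCl4 hearts and at most 0.586 RPKM in Control hearts. The relative depth, in the steps that a read adds to the RPKM scale, was 39669514 to 63403315 in CCl4 libraries and 26349504 to 57820661 in Control libraries.

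Transcripts of the endothelial synthase and its caveolar partner were the members that set the groups apart. Nos3 and Cav1 were lower in every CCl4 heart than in any Control heart, Nos2 was lower with overlap, and Ddah1 was high in 3 of 6 CCl4 hearts. None of these differences passed the adjusted threshold. Among all tested genes, 0.724% were lower without overlap, or 0.256% with median-of-ratios scaling. Cav1 had the highest level of the 9 genes in every Control heart, and in Control hearts it was followed by Ddah2, Nos3 and Nos2, each above the next in 6 of 6 hearts. Pde5a, Prkg1 and Ddah1 came next and were close together, since Pde5a exceeded Prkg1 in 4 of 6 and Prkg1 exceeded Ddah1 in 5 of 6 Control hearts. Arg2 and Nos1 were the lowest. In CCl4 hearts the mean of Ddah1 stood above that of Nos2, but only in 3 of 6 hearts. Nos2, Nos3, Ddah2 and Cav1 met the filter, and the other 5 members did not. For those 5 the fold changes come from a fit to all 31722 symbols, in which 0 genes had an adjusted p under 0.05, 635 were higher (2%) and 1726 lower (5.44%) at an unadjusted p under 0.05.

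**Figure D1:**
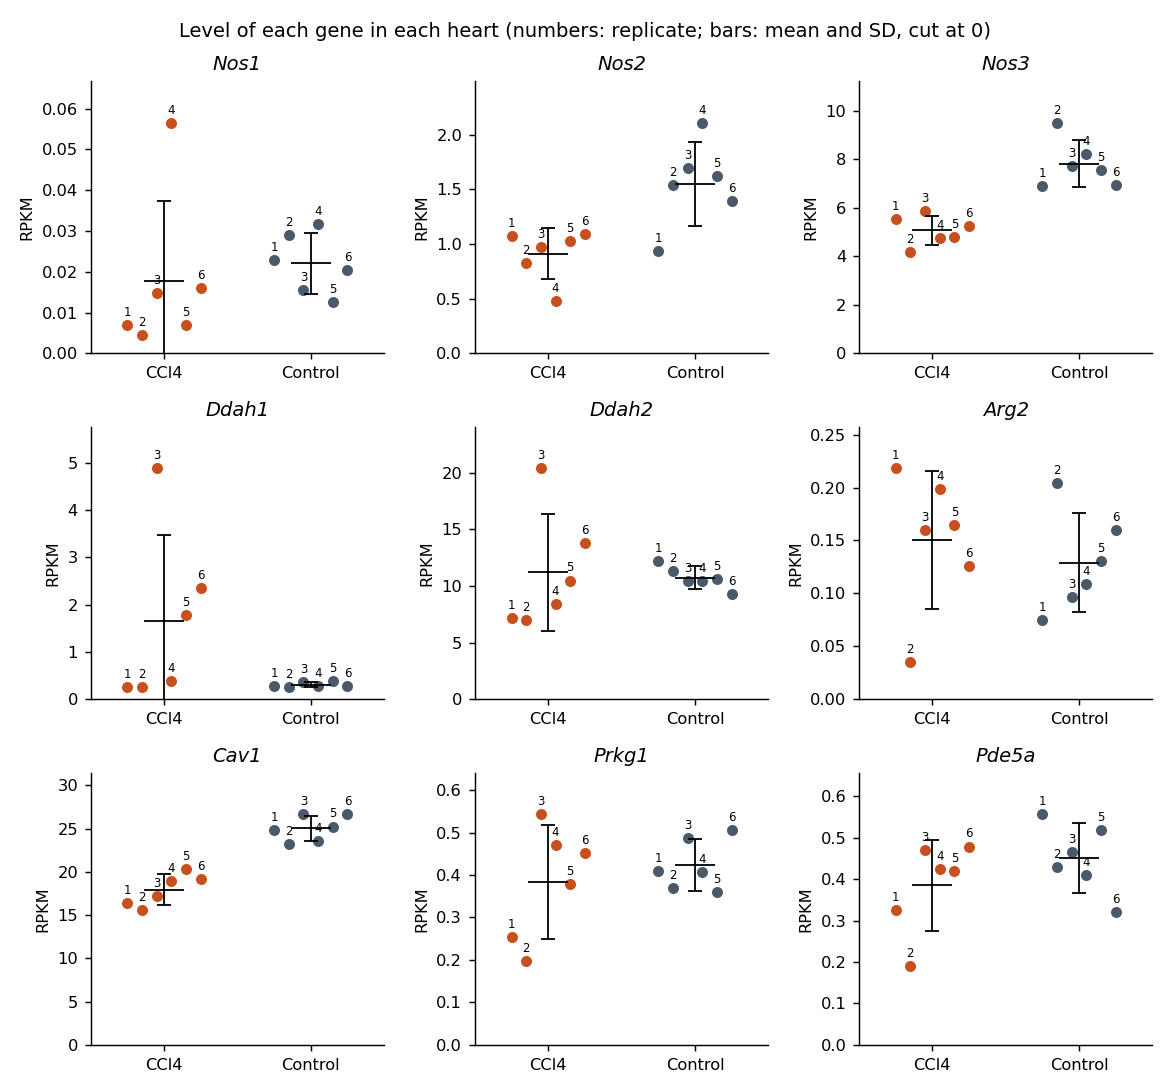
Level of each of the 9 genes in every heart, in RPKM, with CCl4 hearts on the left and Control hearts on the right of each panel, points numbered by replicate, and bars for the mean and SD. Nos3 and Cav1 points of the 2 groups do not overlap, and Ddah1 exceeds every Control heart in CCl4 replicates 3, 5 and 6 only.

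**Figure D2:**
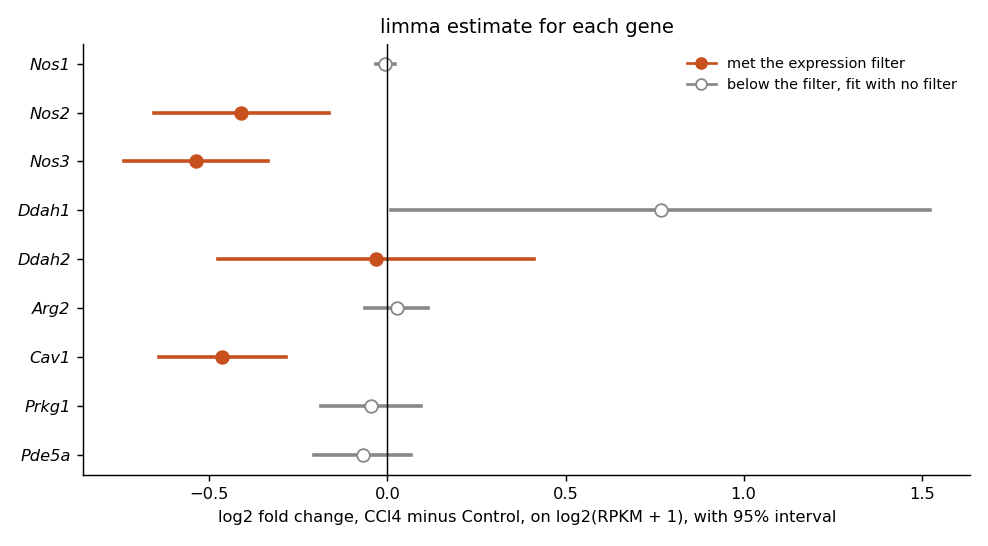
Log2 fold change of each member, CCl4 minus Control on log2(RPKM + 1), with its 95% confidence interval. The intervals of Nos3 (-0.74 to -0.34), Cav1 (-0.64 to -0.29) and Nos2 (-0.65 to -0.16) lie below 0, and none of the 9 genes passed the adjusted threshold.

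Nos3 makes the nitric oxide that the endothelium of coronary vessels and endocardium releases. Its level was 4.18, 5.03 and 5.88 RPKM (lowest, median and highest) in CCl4 hearts, against 6.91, 7.65 and 9.52 RPKM in Control hearts. The highest CCl4 heart lay below the lowest Control heart, so the groups did not overlap. Of all tested genes 0.724% were lower with no overlap between the groups. The means were 5.07 ± 0.613 RPKM in CCl4 hearts and 7.82 ± 0.971 RPKM in Control hearts (SD, n = 6 each), a difference of -35.1%. The log2 fold change was -0.54 (SE 0.09), with the 11th smallest p of 14087 genes and an adjusted p of 0.0731. An exact two-sided permutation test of Nos3 alone gave p = 0.00216, the smallest that 924 splits can give. This value follows from the lack of overlap and adds nothing to it. Adjusted over all tested genes, the permutation p was 0.285. The adjusted p was 0.0418 without CCl4 replicate 1 and 0.0373 without Control replicate 1. The unadjusted limma p of Nos3 did not fall there. It was 8.94e-05 and 6.87e-05, against 5.71e-05 with all hearts. Those fits called 46 and 30 genes, against 0 with all hearts, so the adjusted p moved with the p-values of other genes. With array weights, where 5.47% of genes were called higher and 10.5% lower, Nos3 was at -0.59 (adjusted p = 0.0011).

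Part of the Nos3 reads may not be told from those of a gene on the other strand. Nos3 lies on the plus strand of chromosome 5 (chr5:24364810-24384474, GRCm38), and the annotated gene Gm15587 on the minus strand (chr5:24366192-24383614). In GENCODE release M21 their exons share 1040 bp, which is 25.2% of the Nos3 exon length and 27.7% of that of Gm15587. A further 294 bp (7.12%) of Nos3 exons lie on the antisense gene Atg9b. The library kit keeps strand, but the strand setting of the counting is not given in the sources used here. A coding exon of Nos3 that lies entirely on Gm15587 exons (chr5:24377281-24377348, plus strand, 68 bp) shows the kind of sequence concerned and is printed in lower case throughout, since all of it is shared.

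Nos3 exon: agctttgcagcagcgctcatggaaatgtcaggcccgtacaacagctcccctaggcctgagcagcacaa

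Gm15587 was at 2.67 ± 0.409 RPKM in CCl4 hearts and 4.14 ± 0.486 RPKM in Control hearts (SD, n = 6 each). Its log2 fold change was -0.49 (adjusted p = 0.0916), and its groups did not overlap either. Lower levels with no overlap were found in 0.724% of all tested genes. The ratio of Gm15587 to Nos3 lay between 0.486 and 0.551 in CCl4 hearts and between 0.495 and 0.562 in Control hearts. The pair thus kept nearly the same proportion in all 12 hearts, and how many reads they share was not tested.

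Endothelial marker RNA was lower in most CCl4 hearts. All 14 endothelial markers, among them Pecam1, Cdh5 and Tie1, had log2 fold changes below 0 except under some scalings for Emcn and Ptprb, and the median was -0.35, against -0.05 for all tested genes. At an unadjusted p under 0.05, 11 of the 14 were lower, against 8.58% of all tested genes, and 0 passed the adjusted threshold. Emcn and Ptprb were at -0.06 and -0.04. Scaled by the median of ratios or without mitochondrial RNA, both were above 0, as Ptprb was after quantile normalization. Summed over the list, the markers were at 172.2, 213.7 and 262.6 RPKM in CCl4 hearts, against 252.8, 278.9 and 303.9 RPKM in Control hearts (lowest, median and highest). No marker of the list was at 0 in all hearts.

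Set against the mean log2(RPKM + 1) of those 14 markers, Nos3 was at -1.17 ± 0.0984 in CCl4 hearts and -0.99 ± 0.150 in Control hearts (SD, n = 6 each). The difference of -0.17 had p = 0.0411 in an exact two-sided permutation test, and 6 of 6 CCl4 hearts lay below the Control median. This call was lost in 10 of 18 alternatives. With Pecam1 and Cdh5 as the only markers the difference was -0.13 (exact permutation p = 0.206). With any 1 heart left out it was between -0.21 and -0.13 (exact permutation p between 0.0195 and 0.0909), and it missed the threshold without CCl4 replicate 2, 3, 5 or 6 and without Control replicate 2, 3, 4 or 5. With the endothelial mean as a covariate in limma, the log2 fold change of Nos3 was -0.30 (adjusted p = 0.201). That covariate moved the whole set of tested genes. Their median log2 fold change was 0.12, against -0.05 without it. At an unadjusted limma p under 0.05, 2402 genes were then higher and 730 lower.

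**Figure D3:**
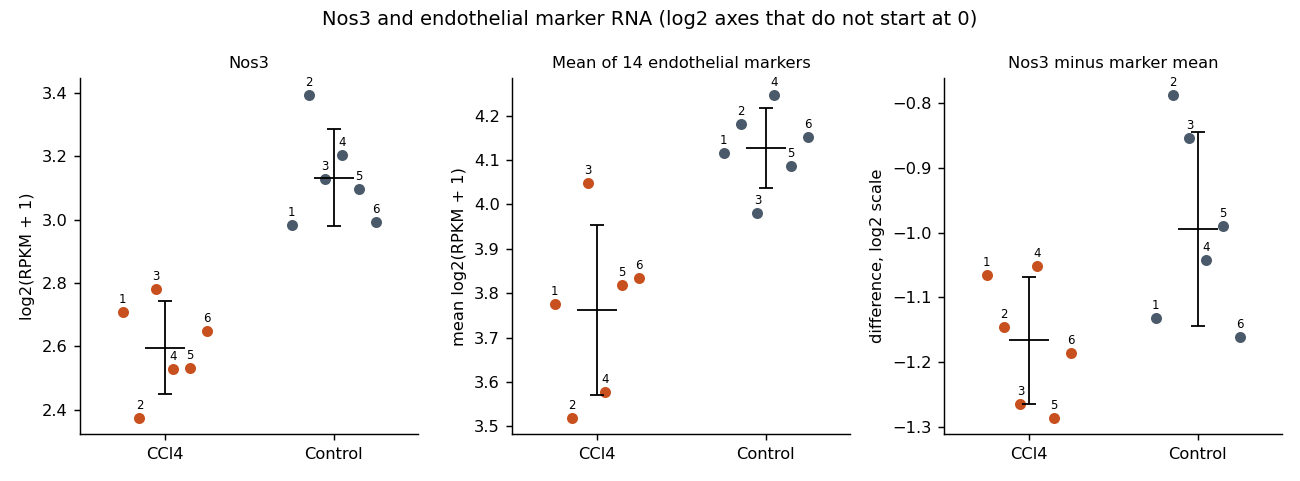
Nos3, the mean of 14 endothelial markers and the difference between them in each heart, on log2(RPKM + 1) axes that do not start at 0, CCl4 hearts on the left and Control hearts on the right, points numbered by replicate, bars for the mean and SD. Nos3 does not overlap between the groups, whereas in the marker mean CCl4 replicate 3 lies among the Control hearts and the mean averaged 3.76 ± 0.191 in CCl4 hearts and 4.13 ± 0.0907 in Control hearts.

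The genes whose log2(RPKM + 1) followed Nos3 most closely over the 12 hearts, out of 11244 tested genes with a descriptive symbol, were Pknox1 (Pearson r = 0.957, Spearman rho = 0.986), Mtmr4 (r = 0.954, rho = 0.965), Caskin2 (r = 0.951, rho = 0.979), Sox7 (r = 0.945, rho = 0.965) and Cdk17 (r = 0.942, rho = 0.930). All points share the group difference and the scaling of their library. Among the members, Nos2 stood at r = 0.803 (rank 323), Cav1 at r = 0.771 (rank 506) and Ddah2 at r = 0.254.

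Nos2 (chr11:78920787-78960254, plus strand), the inducible synthase, was at 0.479, 1.001 and 1.09 RPKM in CCl4 hearts, against 0.936, 1.58 and 2.11 RPKM in Control hearts (lowest, median and highest). The groups overlapped through Control replicate 1, the only Control heart within the CCl4 range. The mean was 0.912 ± 0.232 RPKM in CCl4 hearts and 1.55 ± 0.385 RPKM in Control hearts (SD, n = 6 each). The log2 fold change was -0.41 (SE 0.11, adjusted p = 0.264). It was -0.71 with a pseudocount of 0.1 and -0.19 with the endothelial mean as a covariate. With the atrial mean as a covariate it was -0.51 (limma adjusted p = 0.059). It was -0.49 without Control replicate 1 (adjusted p = 0.0657) and -0.34 without CCl4 replicate 4 (adjusted p = 0.328). These 2 hearts, the highest in atrial markers, had the lowest Nos2 of their groups. The part of atrial tissue in the Nos2 level was not tested. Macrophage and neutrophil markers, of which 7 were in the table, summed to 25.4 to 149 RPKM in CCl4 hearts and 35.97 to 53.2 RPKM in Control hearts. Nos2 was therefore lower in CCl4 hearts while these markers were higher in 3 of them, and their part in the result was not tested.

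Nos1 (chr5:117781032-117958840, plus strand), the neuronal synthase, was close to the limit of detection. It was at 0.00452, 0.0110 and 0.0566 RPKM in CCl4 hearts, against 0.0126, 0.0217 and 0.0318 RPKM in Control hearts (lowest, median and highest). These levels stood for 2 to 40 read steps per CCl4 heart and 6 to 16 per Control heart. The log2 fold change was -0.01, and no difference was detectable at this depth. The neuron and Schwann cell markers summed to 2.42 to 3.87 RPKM in CCl4 hearts and 3.14 to 6.06 RPKM in Control hearts.

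Cav1 (chr6:17306335-17341452, plus strand) builds caveolae in endothelium, fibroblasts, smooth muscle and fat cells. It was at 15.6, 18.0 and 20.3 RPKM in CCl4 hearts, against 23.3, 25.02 and 26.7 RPKM in Control hearts (lowest, median and highest). As for Nos3, every CCl4 heart lay below every Control heart. The means were 17.9 ± 1.82 RPKM in CCl4 hearts and 25.04 ± 1.46 RPKM in Control hearts (SD, n = 6 each), a difference of -28.3%. The log2 fold change was -0.46 (SE 0.08, adjusted p = 0.0828), with the 12th smallest p. The exact two-sided permutation test of Cav1 alone gave p = 0.00216, which again follows from the lack of overlap. Adjusted over all tested genes, the permutation p was 0.285. The groups of Nos3 and Cav1 did not overlap under median-of-ratios scaling either, where 0.256% of genes were lower with no overlap. With the endothelial mean as a covariate the log2 fold change of Cav1 was -0.46 (adjusted p = 0.0894). Cav1 minus the endothelial marker mean on log2(RPKM + 1) was 0.48 ± 0.210 in CCl4 hearts and 0.57 ± 0.159 in Control hearts (SD, n = 6 each), a difference of -0.10 with overlapping groups.

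Most other caveolar genes also lay lower in CCl4 hearts. Of 7 genes 5 were lower at an unadjusted p under 0.05, against 8.58% of all tested genes. None passed the adjusted threshold, and the median log2 fold change of the list was -0.36. Sdpr (Cavin2), which shapes caveolae in endothelium, was at 61.5 ± 4.25 RPKM in CCl4 hearts and 84.4 ± 5.29 RPKM in Control hearts (log2 fold change -0.45, adjusted p = 0.0731). Cav2, the partner of Cav1 in the caveolar coat, was at 3.76 ± 0.378 RPKM in CCl4 hearts and 5.13 ± 0.609 RPKM in Control hearts (-0.36, adjusted p = 0.179). The groups of both genes did not overlap, as in the 0.724% of all tested genes that were lower without overlap. Ehd2, an ATPase at the neck of caveolae, was at 14.3 ± 2.70 RPKM in CCl4 hearts and 18.6 ± 1.27 RPKM in Control hearts (-0.38, adjusted p = 0.269). Cav3, the muscle form, differed less, at -0.12, and Prkcdbp (Cavin3) was at 0.03, or below 0 when levels were scaled to TPM. The summed level of the 7 genes was 185.4 to 246.5 RPKM in CCl4 hearts and 257.9 to 293.8 RPKM in Control hearts, with no overlap.

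The proximal promoter at the first of 2 listed Cav1 starts (chr6:17306085-17306384, GRCm38.p6, plus strand) and those of the hydrolases Ddah1 (chr3:145758442-145758741, plus strand) and Ddah2 (chr17:35058785-35059084, plus strand) are shown because Cav1 was lower in all CCl4 hearts while Ddah1 and Ddah2 were high in overlapping sets of CCl4 hearts. The RefSeq sequences run from 250 bases before to 50 bases after the start. Capitals mark 2 motifs, each searched on both strands. The GC box is GGGCGG, which Sp1 family factors bind. The other motif, which Kruppel-like factors bind, is CACCC. Neither set of letters contains the other.

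Cav1: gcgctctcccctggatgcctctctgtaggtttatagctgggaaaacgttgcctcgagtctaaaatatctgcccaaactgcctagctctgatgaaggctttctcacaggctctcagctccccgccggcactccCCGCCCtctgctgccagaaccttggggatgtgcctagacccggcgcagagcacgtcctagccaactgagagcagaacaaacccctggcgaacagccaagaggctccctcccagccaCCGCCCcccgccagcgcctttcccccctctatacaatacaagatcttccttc
Ddah1: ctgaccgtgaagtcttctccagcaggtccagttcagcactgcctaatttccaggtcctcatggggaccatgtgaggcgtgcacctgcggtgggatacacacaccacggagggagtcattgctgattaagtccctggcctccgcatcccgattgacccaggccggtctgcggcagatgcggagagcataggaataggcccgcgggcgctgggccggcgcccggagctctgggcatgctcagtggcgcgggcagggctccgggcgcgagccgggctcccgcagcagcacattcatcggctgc
Ddah2: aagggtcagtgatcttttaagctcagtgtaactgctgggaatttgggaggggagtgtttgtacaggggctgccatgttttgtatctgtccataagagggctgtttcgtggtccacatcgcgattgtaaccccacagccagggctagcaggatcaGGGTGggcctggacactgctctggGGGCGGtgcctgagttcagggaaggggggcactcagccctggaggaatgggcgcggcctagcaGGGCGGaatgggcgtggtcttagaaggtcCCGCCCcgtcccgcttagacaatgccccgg

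The Cav1 window holds 2 GC boxes and 0 CACCC boxes, the Ddah2 window 3 GC boxes and 1 CACCC box, and the Ddah1 window 0 of each. The window at the other Cav1 start (chr6:17307390-17307689), not printed, holds 0 GC boxes and 1 CACCC box. Of 32851 mouse promoters of the same length 35.7% hold a GC box and 57.5% a CACCC box. A match is a description of the letters and no measure of binding. Of the 9 members 6 have an entry, and Nos2, Nos3 and Arg2 have none.

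Ddah1 (chr3:145758675-145894277, plus strand) hydrolyses ADMA. It was at 0.253, 1.09 and 4.89 RPKM in CCl4 hearts, against 0.261, 0.277 and 0.387 RPKM in Control hearts (lowest, median and highest). CCl4 replicates 3, 5 and 6, at 4.89, 1.79 and 2.34 RPKM, exceeded every Control heart, while CCl4 replicates 1, 2 and 4 lay between 0.253 and 0.384 RPKM. The mean was 1.65 ± 1.81 RPKM in CCl4 hearts and 0.305 ± 0.0542 RPKM in Control hearts (SD, n = 6 each). The log2 fold change was 0.77 (SE 0.35, adjusted p = 0.668), and the exact two-sided permutation test of Ddah1 alone gave p = 0.126. It was 0.49 without CCl4 replicate 3, 1.39 with a pseudocount of 0.1 and 2.00 (adjusted p = 0.0773) with the endothelial mean as a covariate. That covariate moved the median log2 fold change of the genes that met the filter from -0.05 to 0.12. Of 14087 tested genes 5.58% were above all Control hearts in exactly those 3 CCl4 hearts.

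Ddah2 (chr17:35059035-35062095, plus strand) is the second family member, widely expressed in vessels and immune cells. It was at 7.01, 9.44 and 20.4 RPKM in CCl4 hearts, against 9.29, 10.6 and 12.2 RPKM in Control hearts (lowest, median and highest). CCl4 replicates 3 and 6 lay above and CCl4 replicates 1, 2 and 4 below all Control hearts, so the CCl4 group spread to both sides. The coefficient of variation was 46.1% in CCl4 hearts and 9.23% in Control hearts. The means were 11.2 ± 5.17 RPKM in CCl4 hearts and 10.7 ± 0.991 RPKM in Control hearts (SD, n = 6 each), with a log2 fold change of -0.03 (SE 0.21, 95% interval -0.48 to 0.41, adjusted p = 0.972). Its sign depended on the scaling, and with the endothelial mean as a covariate it was 0.71 (adjusted p = 0.127). In that fit the median of all tested genes was 0.12, so part of the rise is shared by the whole table. The ratio of Ddah1 to Ddah2 was 0.0355 to 0.240 in CCl4 hearts and 0.0227 to 0.0363 in Control hearts.

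Fibroblast and macrophage markers were highest in CCl4 replicates 3, 5 and 6, the hearts with high Ddah1, while Ddah2 exceeded every Control heart in replicates 3 and 6 but not in replicate 5. The 6 fibroblast markers summed to 549, 261 and 320 RPKM in CCl4 replicates 3, 5 and 6 and to 90.2, 107 and 183 RPKM in CCl4 replicates 1, 2 and 4, against 82.2 to 217 RPKM in Control hearts. All 6 had log2 fold changes above 0, whereas 65.7% of all tested genes were below 0. At an unadjusted p under 0.05, 1 of the 6 was higher, against 1.6% of all tested genes, and 0 passed the adjusted threshold. Col1a1, which encodes a chain of collagen I, reached 92.8 RPKM in CCl4 replicate 3, against 8.51 to 21.0 RPKM in Control hearts. The macrophage and neutrophil markers were at 149, 75.1 and 98.1 RPKM in CCl4 replicates 3, 5 and 6 and at 35.97 to 53.2 RPKM in Control hearts. No defining marker of either list was at 0 in all hearts. The part of these cell types in the Ddah1 and Ddah2 levels was not tested.

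**Figure D4:**
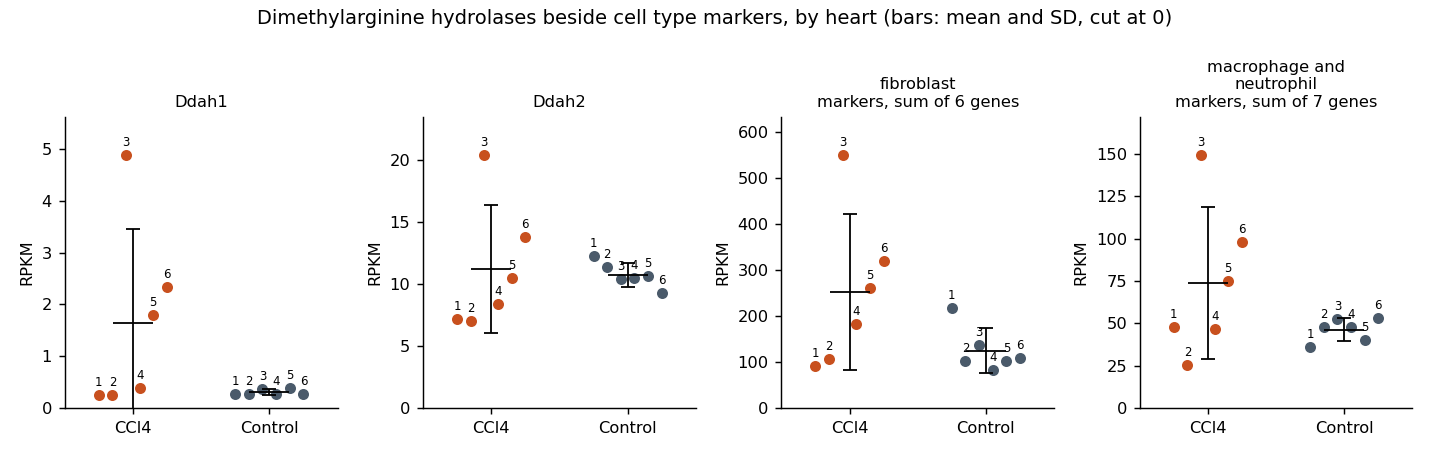
Ddah1, Ddah2 and the summed fibroblast and macrophage markers in every heart, in RPKM, CCl4 hearts on the left and Control hearts on the right, points numbered by replicate, bars for the mean and SD cut at 0. CCl4 replicate 3 is the highest heart in all 4 panels, at 4.89 RPKM for Ddah1 and 549 RPKM for the fibroblast markers.

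ADMA is released from proteins methylated by the Prmt enzymes. Of the 3 tested genes of this list Prmt1, the main type I methyltransferase, was lower at an unadjusted p under 0.05, at 3.83 ± 0.486 RPKM in CCl4 hearts and 4.66 ± 0.744 RPKM in Control hearts (SD, n = 6 each, log2 fold change -0.22, adjusted p = 0.49). Carm1 was at 0.04 and Prmt3 at 0.01 on the same scale.

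Arg2 (chr12:79130777-79156301, plus strand), the mitochondrial arginase, was at 0.0353, 0.162 and 0.218 RPKM in CCl4 hearts, against 0.0746, 0.120 and 0.204 RPKM in Control hearts (lowest, median and highest). The groups overlapped widely, with 2 to 18 read steps per CCl4 heart and 5 to 9 per Control heart. The log2 fold change was 0.03 (95% interval -0.06 to 0.11, adjusted p = 0.861). Arg2 shares 285 bp of exon (20%) with Vti1b on the other strand, a gene at 71.4 ± 11.9 RPKM in CCl4 hearts and 72.7 ± 7.61 RPKM in Control hearts, so the few Arg2 reads are uncertain.

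Of the carriers that bring arginine into cells, Slc7a1 lay lower and Slc7a2 higher on average in CCl4 hearts, with overlap between the groups. Slc7a1 was at 1.61 ± 0.307 RPKM in CCl4 hearts and 2.61 ± 0.713 RPKM in Control hearts (log2 fold change -0.46, adjusted p = 0.284). Slc7a2 was at 1.03 ± 0.678 RPKM in CCl4 hearts and 0.483 ± 0.209 RPKM in Control hearts (0.40, adjusted p = 0.49), above all Control hearts in CCl4 replicates 3, 5 and 6. Ass1, which rebuilds arginine from citrulline, was at 2.23 ± 1.41 RPKM in CCl4 hearts and 1.35 ± 0.569 RPKM in Control hearts (0.39, adjusted p = 0.59). Of 4 tested genes of arginine supply 1 was higher and 1 lower at an unadjusted p under 0.05, against 1.6% and 8.58% of all tested genes.

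Synthase cofactors and partners were mostly close to Control. Of 5 tested tetrahydrobiopterin genes 0 had an unadjusted p under 0.05, and Gch1, the first enzyme of its synthesis, was at 0.612 ± 0.145 RPKM in CCl4 hearts and 0.768 ± 0.109 RPKM in Control hearts (log2 fold change -0.14, adjusted p = 0.532). All 10 tested synthase partners had log2 fold changes below 0, or 6 of them with median-of-ratios scaling. At an unadjusted p under 0.05, 1 of the 10 was lower, against 8.58% of all tested genes. This was Nostrin, which draws Nos3 away from the plasma membrane. Nostrin was at 5.42 ± 1.40 RPKM in CCl4 hearts and 7.79 ± 1.21 RPKM in Control hearts (-0.47, adjusted p = 0.293). Akt1, a kinase that phosphorylates Nos3, was at -0.18.

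Regulators that respond to blood flow and are known to raise Nos3 were lower in most CCl4 hearts. Klf4 was at 10.7 ± 3.07 RPKM in CCl4 hearts and 17.8 ± 1.88 RPKM in Control hearts (SD, n = 6 each, log2 fold change -0.71, adjusted p = 0.141). Klf2 was at 8.02 ± 1.78 RPKM in CCl4 hearts and 10.8 ± 2.09 RPKM in Control hearts (-0.39, adjusted p = 0.363). Both lay below all Control hearts in 5 of 6 CCl4 hearts. Piezo1, a channel opened by membrane stretch, was at -0.21. The sum of these 3 genes was 18.2 to 30.7 RPKM in CCl4 hearts and 31.5 to 36.4 RPKM in Control hearts, with no overlap. Each of the 3 genes alone overlapped between the groups. Among single tested genes 0.724% were lower without overlap, and sums of other genes were not compared.

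Downstream of nitric oxide, Prkg1 (chr19:30564489-31765033, minus strand) and Pde5a (chr3:122728947-122859374, plus strand) showed no detectable difference. Prkg1 was at 0.197, 0.416 and 0.543 RPKM in CCl4 hearts, against 0.359, 0.408 and 0.506 RPKM in Control hearts (lowest, median and highest), and its log2 fold change was -0.05 (95% interval -0.19 to 0.10, adjusted p = 0.851). Pde5a was at 0.190, 0.422 and 0.479 RPKM in CCl4 hearts, against 0.320, 0.448 and 0.557 RPKM in Control hearts, and its log2 fold change was -0.07 (95% interval -0.21 to 0.07, adjusted p = 0.801). The groups overlapped for both genes. CCl4 replicates 1 and 2 had the lowest Prkg1, while the other CCl4 hearts lay in or near the Control range. Those 2 libraries also had the highest mitochondrial shares, 40.5% and 43.8%, whose part in the Prkg1 level was not tested. The ratio of Prkg1 to Pde5a averaged 0.989 ± 0.137 in CCl4 hearts and 0.984 ± 0.323 in Control hearts.

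Among the enzymes that make cyclic GMP, Npr1, the receptor for atrial and B-type natriuretic peptides, was lower at an unadjusted p under 0.05. It was at 4.60 ± 0.648 RPKM in CCl4 hearts and 5.63 ± 0.679 RPKM in Control hearts (log2 fold change -0.24, adjusted p = 0.404). Gucy1b3 and Gucy1a3 encode the subunits of the soluble cyclase. Gucy1b3 was at 8.57 ± 3.06 RPKM in CCl4 hearts and 6.76 ± 0.36 RPKM in Control hearts (0.25, adjusted p = 0.649), above all Control hearts in CCl4 replicates 3, 5 and 6. Gucy1a3 was at 3.99 ± 1.65 RPKM in CCl4 hearts and 3.28 ± 0.686 RPKM in Control hearts (0.18, adjusted p = 0.778).

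Among 7 tested phosphodiesterases other than Pde5a, Pde2a, which cyclic GMP itself activates, was lower at an unadjusted p under 0.05. It was at 4.31 ± 0.650 RPKM in CCl4 hearts and 6.11 ± 0.638 RPKM in Control hearts (log2 fold change -0.43, adjusted p = 0.163), below all Control hearts in 5 of 6 CCl4 hearts. Pde1a and Pde1c are activated by calcium signals. Pde1a was at 1.56 ± 0.976 RPKM in CCl4 hearts and 0.840 ± 0.307 RPKM in Control hearts (0.40, adjusted p = 0.547). Pde1c was at 2.01 ± 0.481 RPKM in CCl4 hearts and 1.64 ± 0.289 RPKM in Control hearts (0.18, adjusted p = 0.621).

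All 6 tested kinase G genes had log2 fold changes below 0, as did 65.7% of all tested genes. Their median was -0.17, or -0.10 with median-of-ratios scaling and -0.09 without mitochondrial RNA in the scaling. Rgs2, which is activated by Prkg1 and damps Gq signalling, was lower at an unadjusted p under 0.05, at 1.40 ± 0.792 RPKM in CCl4 hearts and 2.22 ± 0.678 RPKM in Control hearts (-0.46, adjusted p = 0.43). Mrvi1, a Prkg1 substrate at the endoplasmic reticulum, was at -0.22, and the actin regulator Vasp was at -0.25. Smooth muscle markers, whose cells use this branch, summed to 197.8 to 283.0 RPKM in CCl4 hearts and 227.7 to 380.6 RPKM in Control hearts.

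Of the genes that remove nitric oxide or export cyclic GMP, Cygb, a globin of fibroblasts and smooth muscle that consumes nitric oxide, was higher at an unadjusted p under 0.05. It was at 45.6 ± 24.0 RPKM in CCl4 hearts and 26.4 ± 2.36 RPKM in Control hearts (log2 fold change 0.63, adjusted p = 0.388), and it exceeded every Control heart in CCl4 replicates 3, 5 and 6. Abcc4, which exports cyclic nucleotides, was at 1.27 ± 0.167 RPKM in CCl4 hearts and 1.59 ± 0.271 RPKM in Control hearts (-0.18, adjusted p = 0.461). Mb, the oxygen store of muscle, was at -0.23.

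Over the 10 lists 66 genes were in the table and 55 were tested. Of these 2 were higher and 14 lower at an unadjusted p under 0.05, against 1.6% and 8.58% of all tested genes, and 0 passed the adjusted threshold. Their median log2 fold change was -0.10, against -0.05 for all tested genes, and 40 of 55 were below 0. Like Ddah1, 6 of the 66 genes were above all Control hearts in exactly CCl4 replicates 3, 5 and 6. They were Slc7a2, Gucy1b3, Pde1a, Pde1b, Cyb5r3 and Cygb, all among the 55 tested. This pattern held for 5.58% of all tested genes, and a difference from that share was not tested. In CCl4 replicates 3, 5 and 6 the fibroblast and macrophage markers were also highest.

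**Figure D5:**
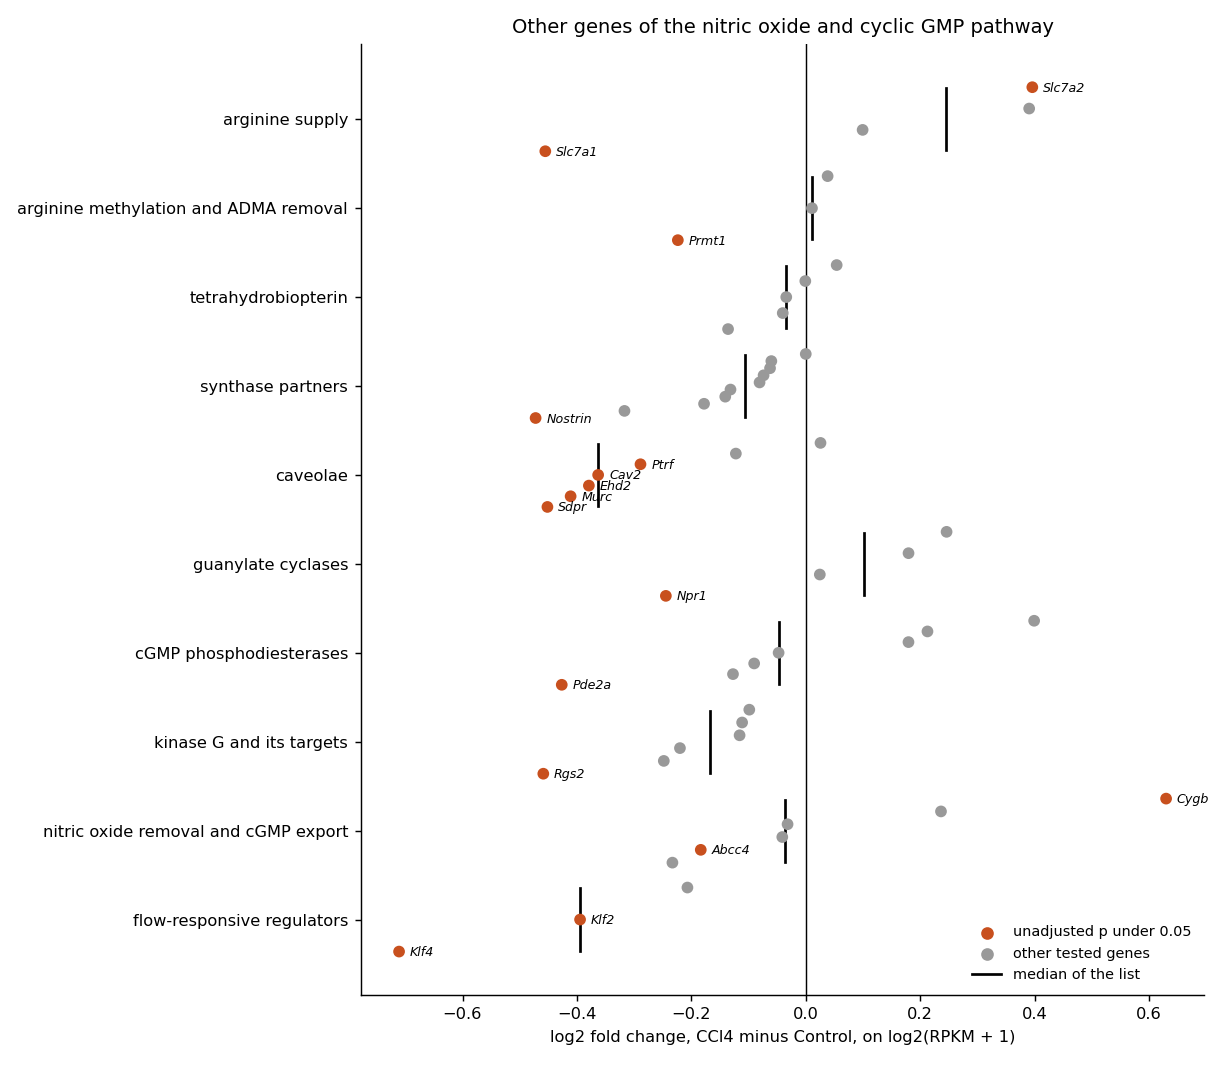
Log2 fold change of the tested genes of each list, CCl4 minus Control on log2(RPKM + 1), with names at genes of unadjusted p under 0.05 and a black line at the list's median. The caveolae (median -0.36) and the flow-responsive regulators (median -0.39) lie farthest to the left, and Cygb (0.63) farthest to the right.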

How the data were processed

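Hearts of 12 mice were profiled by stranded messenger RNA sequencing after TRIzol extraction, per the labels' protocols. The tools named in the submitters' processing notes are Trimmomatic 0.36, Subread 1.5.1 and featureCounts, with the GRCm38 build. Not given in the sources used here are the aligner, annotation release and strand option. The authors deposited RPKM for 31722 symbols, 1 column per heart. Groups and replicate numbers came from the titles.

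The 9 members and all lists were chosen with earlier results of these data known. Genes with at least 0.5 RPKM in at least 6 libraries were fitted with limma 3.58.1 (R 4.3.3, lmFit and eBayes with trend) on log2(RPKM + 1), with a threshold of 0.05 on the adjusted p. The steps were tested on simulated data, where 90% of 2-fold and 60% of 1.5-fold changes were called, with 6 false calls among 14087 genes. P-values refer to the spread between these 12 mice. Named were all members, Gm15587, up to 3 genes of smallest p in each pathway list and the 5 genes most like Nos3; others were named after their values were seen, and 1 gene of the synthase partners is not reported here. Exon lengths and coordinates came from GENCODE release M21, where 95.2% of symbols matched 1 length. Multiplied by length, 92.7% to 93.9% of low values lay within 0.05 of a whole read step. Promoters came from RefSeq (GRCm38.p6). Alternatives covered the pseudocount, filter, scaling, array weights, replicate block, covariates and hearts left out; leaving out CCl4 replicate 4 with Control replicate 1 was chosen after seeing the data. Tables and plots used matplotlib 3.10.9, numpy 2.4.6, pandas 2.3.3 and Python 3.11.15.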

Additional observations from a re-analysis of the deposited data

Results flagged for a closer look

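Among 22 groups of values checked, 1 heart lay far from the rest of its group. Nos1 was at 0.0566 RPKM in CCl4 replicate 4, while the next CCl4 heart was at 0.0161 RPKM. The level of the outlying heart stood for 40 read steps. It is also the CCl4 heart richest in atrial markers, and the part of atrial tissue in its Nos1 level was not tested. Chance marks about 1 in 20 groups in this way.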

How the results depend on the processing

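The count of 0 genes with an adjusted p under 0.05 moved to 2249 with array weights (770 higher, 1479 lower), to 196 with the endothelial mean as a covariate, to 19 with the atrial mean as a covariate and to 1 without CCl4 replicate 4 and Control replicate 1; with 1 heart left out it was between 0 and 46. With array weights the adjusted p was 0.0011 for Nos3, 0.00515 for Cav1 and 0.00958 for Nos2. Nos3 (-0.63 to -0.30), Cav1 (-0.54 to -0.33), Nos2 (-0.71 to -0.19) and Ddah1 (0.49 to 2.00) kept their direction under every alternative run. Ddah2 was 0.0343 with median-of-ratios scaling, 0.0293 with quantile normalization, 0.0521 without mitochondrial RNA in the scaling, 0.71 with the endothelial covariate, 0.0596 without CCl4 replicate 4 and Control replicate 1, and -0.213 to 0.0704 with 1 heart left out. Prkg1 (0.0728) and Pde5a (0.0334) turned positive with the endothelial covariate, Nos1 (0.00013) with the atrial covariate, and Arg2 (-0.000299) turned negative without that pair of hearts, and was at most 0.0561 with 1 heart left out. With the endothelial covariate the median log2 fold change of the genes that met the filter was also positive, at 0.12. Nos3 relative to the endothelial markers was -0.13 (exact permutation p = 0.206) with Pecam1 and Cdh5 alone, between -0.21 and -0.13 with 1 heart left out, -0.22 without that pair, and -0.17 with the replicate block (exact p = 0.156). The cause of these changes was not tested. Hearts of the same number deviated together at r between -0.474 and 0.232, so the numbers were not taken as pairs; with the replicate block 0 genes were called, the adjusted p of Nos3 was 0.462 and its log2 fold change was -0.54. Depth limits Nos1 and Arg2, at as few as 2 read steps in a heart.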

Other observations

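Atg9b, antisense to Nos3, was at 0.176 ± 0.0624 RPKM in CCl4 hearts and 0.269 ± 0.0979 RPKM in Control hearts (SD, n = 6 each). The ratio of Nos3 to Cav1 averaged 0.285 ± 0.0447 in CCl4 hearts and 0.314 ± 0.0550 in Control hearts, and that of Nos2 to Nos3 averaged 0.180 ± 0.0423 in CCl4 hearts and 0.198 ± 0.0433 in Control hearts. Each ratio overlapped between the groups.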
